A study of Mus musculus with 16 samples.

Results

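The genes described here are 10 surface and secreted markers of homeostatic microglia, Tmem119, Cx3cr1, Siglech, Fcrls, Olfml3, Sparc, Selplg, Adgrg1, Csf1r and Slc2a5, which were chosen by name. All 10 were listed in the count table among 55385 genes, and all 10 passed the filter on low counts that left 14513 genes for testing. RNA was sequenced from CD11b+ brain cells of female mice 20 weeks old, bound to CD11b magnetic beads after PBS perfusion and removal of the meninges and choroid plexus. The 16 libraries fell into 4 genotypes of 4 libraries each. WT mice carried neither the 5xFAD transgenes nor the Card9 deletion, Card9-/- mice had a germline deletion of Card9, 5xFAD mice carried the transgenes with intact Card9, and Card9-/-5xFAD mice had both. The 5xFAD transgenes are human genes with mutations of familial Alzheimer's disease, driven by the neuronal Thy1 promoter. The transgenes are thus expressed by neurons, while the Card9 deletion is present in every cell of the mouse. CD11b is shared by microglia, border-associated macrophages, monocytes and neutrophils, so the beads do not separate these cells. The paper reports a flow cytometry check of the sorting protocol, in which most cells were CD11b-high and CD45-intermediate, its gate for microglia. No share is given there for single libraries. The labels number the libraries within each genotype and do not say that each came from a separate mouse, so p-values measure the spread between these libraries.

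Homeostatic microglia survey the healthy brain with fine processes, and they are recognized by a set of surface and secreted proteins. Several of these proteins receive signals from neighbouring cells. CX3CR1 binds neuronal fractalkine, and CSF1R binds CSF1 and IL-34, on which microglial survival depends. Near amyloid plaques, microglia take up the disease-associated (DAM) state, in which lipid and lysosomal genes such as Apoe and Cst7 are induced and homeostatic markers are known to be reduced. CARD9 is an adaptor that carries signals from ITAM-coupled receptors in myeloid cells.

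Levels are given in CPM, a gene's count divided by the TMM-adjusted size of its library, and tests are edgeR's quasi-likelihood test on the counts with Benjamini-Hochberg adjustment over all tested genes and a threshold of 0.1 on the adjusted p (FDR). The libraries held between 2970148 and 19333325 counts. The 3 shallowest, Card9-/-5xFAD 4 with 2970148, Card9-/- 4 with 3229322 and WT 1 with 5346747 counts, also had the highest summed level of 8 neutrophil markers (5970, 6310 and 3630 CPM, against at most 2269 CPM in the other 13). These libraries stood apart, and the fold changes, spreads and correlations of the members are also given without them. A second measure, the slope of each library's log2 levels on transcript length, ranged from -0.224 to 0.285 and was negative in 3 of 8 libraries without transgenes and in 5 of 8 with them. A negative slope means that genes with long transcripts read low in that library. The 10 defining microglia genes, among them P2ry12 and C1qa, summed to 12700 CPM or more in every library, and 8 markers of border-associated macrophages summed to between 381 and 1710 CPM. Markers of neurons (2.85 to 22.2 CPM in sum), endothelial cells or pericytes (35.6 to 151 CPM) and T or NK cells (13.1 to 239 CPM) were low throughout. Those of the oligodendrocyte lineage (204 to 942 CPM), astrocytes (173 to 480 CPM) and monocytes (78.6 to 427 CPM) reached higher sums. Card9 itself was counted in every group, at 36.9 ± 16.3 CPM in WT, 29.1 ± 8.37 in Card9-/-, 27.7 ± 8.29 in 5xFAD and 20.2 ± 11.8 in Card9-/-5xFAD (SD, n = 4), with overlapping ranges. A count summed over the whole gene does not show which exons were read, so the Card9 labels were not checked by it, and genotypes are as labelled.

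RefSeq's promoter table for GRCm38.p6 gave windows that were used for 7 of the members, and none was used for Tmem119, Selplg or Csf1r. The stretches below show the sequence before the start annotated by RefSeq. They are of 3 members whose levels varied together, Fcrls, Olfml3 and Slc2a5, and of Siglech, whose level did not follow theirs. Each is the longest part, within 250 bases before the start, that lies in no GENCODE exon, and capitals mark a PU box, GAGGAA, the motif read by the myeloid factor PU.1. The stretches are chr3:87263600-87263677 on the minus strand for Fcrls, chr3:103738002-103738251 on the minus strand for Olfml3, chr4:150119094-150119235 on the plus strand for Slc2a5 and chr7:55767934-55768177 on the plus strand for Siglech. The 2 annotations differ for Fcrls. GENCODE places that gene at chr3:87250758-87263738 on the minus strand, so by GENCODE the Fcrls stretch lies inside the gene and not before its start.
Fcrls: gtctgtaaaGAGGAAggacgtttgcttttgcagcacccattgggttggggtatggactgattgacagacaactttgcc
Olfml3: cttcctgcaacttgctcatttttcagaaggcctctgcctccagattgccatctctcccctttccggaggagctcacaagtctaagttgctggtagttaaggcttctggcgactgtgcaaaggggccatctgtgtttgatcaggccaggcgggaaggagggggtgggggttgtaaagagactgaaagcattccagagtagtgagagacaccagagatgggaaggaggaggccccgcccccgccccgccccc
Slc2a5: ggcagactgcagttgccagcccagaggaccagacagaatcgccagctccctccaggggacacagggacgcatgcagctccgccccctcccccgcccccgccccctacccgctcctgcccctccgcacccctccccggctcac
Siglech: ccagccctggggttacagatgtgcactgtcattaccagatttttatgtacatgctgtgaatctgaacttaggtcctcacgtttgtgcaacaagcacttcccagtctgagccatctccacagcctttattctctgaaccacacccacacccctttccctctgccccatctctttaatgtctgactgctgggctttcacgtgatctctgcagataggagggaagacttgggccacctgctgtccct
Searched on both strands, the PU box stood in 1 of the members' windows, that of Fcrls, with its first base at -144 from the RefSeq start. It stood in 23.3% of 32851 promoter windows of the same length. The TATA box TATAAA, also searched on both strands, was found in the Fcrls window, apart from the PU box, and in 12.4% of all windows. An AP-1 site, TGANTCA, was found in 1 of the Adgrg1 windows and in 6.75% of all windows. Fcrls, Olfml3 and Slc2a5, whose levels went together, did not share the letters of the PU box in these windows, which says nothing about the factor itself.

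The members were among the most abundant genes in these cells, with the exception of Adgrg1. By mean CPM over the 16 libraries, Sparc ranked 9 among all tested genes, Cx3cr1 ranked 10 and Csf1r ranked 15, whereas Slc2a5 ranked 182 and Adgrg1 ranked 573. Per kb of exon, Sparc (1243 CPM per kb) and Fcrls (1174) led, followed by Cx3cr1 (998), Tmem119 (980), Selplg (745), Csf1r (714), Siglech (617), Olfml3 (283), Slc2a5 (199) and Adgrg1 (56.1). Neighbours among the first 4 did not separate, as each stood above the next in 8 of 16 libraries for the first 3 steps. Siglech stood above Olfml3, and Slc2a5 above Adgrg1, in 16 of 16 libraries. Fcrls codes for a scavenger-type Fc receptor-like protein, and Sparc for a secreted matricellular protein that modulates contact with collagen. In GRCm38 with the GENCODE M21 annotation all are protein-coding genes. Tmem119 lies at chr5:113793729-113800516 and Selplg close by at chr5:113818536-113832644, both on the minus strand. Fcrls (chr3:87250758-87263738, minus) and Olfml3 (chr3:103722222-103738001, minus) share a chromosome as well. Cx3cr1 lies at chr9:119901616-120069879 (minus), Siglech at chr7:55768178-55778925 (plus), Adgrg1 at chr8:94974751-95014217 (plus), Slc2a5 at chr4:150119283-150144169 (plus), Sparc at chr11:55394500-55423183 (minus) and Csf1r at chr18:61100598-61132149 (plus). Together the 10 genes took between 1.25% and 3.62% of a library's counts. The lowest count of any member in any library was 351, for Adgrg1, so counting error was small beside the spread between libraries.

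**Figure D1:**
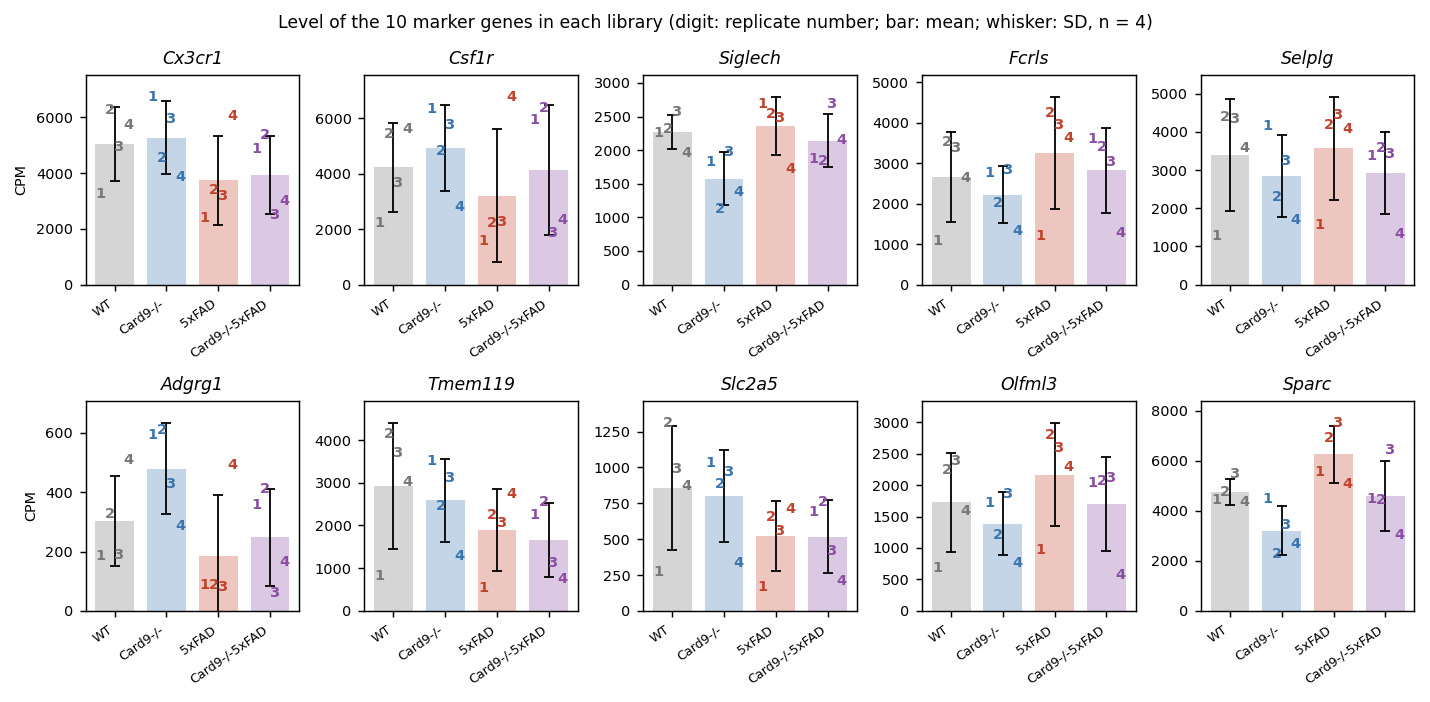
Each panel plots the level in CPM (y axis, from 0) of 1 marker gene in the 4 genotypes (x axis), with the replicate number drawn at each library's value, the mean as a bar and the SD (n = 4) as a whisker, cut at 0 where it would pass below. The ranges of transgenic and non-transgenic groups overlap for all 10 genes, and the lowest digit is 1 in WT, 4 in Card9-/- and 1 in 5xFAD for most genes.

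The comparison of 5xFAD with WT, and of Card9-/-5xFAD with Card9-/-, asks how the markers differ in the presence of the transgenes. Tmem119, Slc2a5, Cx3cr1, Csf1r and Adgrg1 had lower mean levels with the transgenes in both comparisons, while Sparc, Siglech, Fcrls, Olfml3 and Selplg had higher means, and no member passed the test. In 5xFAD against WT, 0 of 10 members were called, with 0 at an unadjusted p below 0.05, where 2.09% of all tested genes were called. In Card9-/-5xFAD against Card9-/-, 0 of 10 were called, with 0 at an unadjusted p below 0.05, against 1.97% of all genes. With both comparisons averaged, 0 of 10 were called by edgeR and 1, Sparc, at an unadjusted p below 0.05, against 11.3% of all genes called. DESeq2 on all 16 libraries called 0 members in each single comparison and 1, Sparc, in the average. In that average it called 8.21% of 29950 genes. The share of all genes called by DESeq2 is given for the average only. No member's ranges separated in 5xFAD against WT, where those of 8.04% of genes did, or in Card9-/-5xFAD against Card9-/-, where those of 7.01% did. The members' median log2 fold change in the average was -0.14, beside -0.15 over all tested genes. Since the median gene lay below 0, a member at 0 stood above the middle of these libraries' genes. The 2 single comparisons share no library, and their members' fold changes ranged from -0.72 to 0.40 and from -0.95 to 0.52 (log2). In bulk RNA, fewer cells that carry a transcript and less of it per cell cannot be told apart.

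Among the receptors, Cx3cr1, the fractalkine receptor, and Csf1r, the receptor for CSF1 and IL-34, had lower means with the transgenes. Cx3cr1 stood at 3253, 6265, 4944 and 5730 CPM in the 4 WT libraries and at 2384, 3380, 3172 and 6046 CPM in the 5xFAD libraries. In Card9-/- it stood at 6734, 4531, 5958 and 3854 CPM, and in Card9-/-5xFAD at 4865, 5357, 2494 and 2987 CPM. The groups overlapped, through 5xFAD 4 and Card9-/-5xFAD 1 and 2, which reached the level of libraries without transgenes. They also overlapped through WT 1, which at 3253 CPM lay below 5xFAD 2 at 3380 CPM. The averaged log2 fold change of Cx3cr1 was -0.43 (SE 0.25, FDR 0.327), with a 95% interval from -0.96 to 0.10, and -0.49 (FDR 0.148) without the 3 shallowest libraries. For Csf1r, 5xFAD libraries 1 to 3 held 1567, 2224 and 2262 CPM and 5xFAD 4 held 6769 CPM, the highest value of all 16. Its WT libraries ranged from 2219 to 5602 CPM, the Card9-/- libraries from 2805 to 6321 and the Card9-/-5xFAD libraries from 1861 to 6368. The averaged change of Csf1r was -0.33 (SE 0.36, FDR 0.624). It was -0.41 (FDR 0.397) without the 3 shallowest libraries and turned to 0.07 (FDR 0.843) with the length slope as a covariate. Csf1r shares 873 exonic bases with the neighbouring genes Hmgxb3 and Mir6983 in GENCODE M21, and Cx3cr1 shares 78 with other genes, so some of their reads could have been assigned otherwise.

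Adgrg1, an adhesion G protein-coupled receptor that binds collagen III and transglutaminase 2, had the largest averaged difference of the members and the widest spread within genotypes. It was counted at 88, 87 and 80 CPM in 5xFAD 1 to 3, and at 491 CPM in 5xFAD 4. The WT libraries held 185, 328, 188 and 508 CPM, the Card9-/- libraries 593.5, 609.8, 428.4 and 285.9 CPM, and the Card9-/-5xFAD libraries 356, 411, 61.0 and 166 CPM. Thus 3 of 4 5xFAD libraries lay below every WT library, and the fourth lay within the WT range. The log2 fold change was -0.70 (FDR 0.741) in 5xFAD against WT, -0.95 (FDR 0.594) in Card9-/-5xFAD against Card9-/- and -0.82 (SE 0.45, FDR 0.299) in the average. Without 5xFAD 4 the average was -1.24 (FDR 0.0470), so this 1 library decided whether Adgrg1 passed, and without the 3 shallowest libraries it was -0.90 (FDR 0.184). Libraries with low Adgrg1 were those with a negative length slope, which was -0.224, -0.124 and -0.147 in 5xFAD 1 to 3 and 0.0699 in 5xFAD 4. With the length slope as a covariate the average was -0.43 (FDR 0.269), and with the neutrophil markers added it was 0.06 (FDR 0.941).

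The remaining surface receptors did not pass either. Siglech, a receptor of the Siglec family that signals through DAP12, was steady, between 1121 CPM in Card9-/- 2 and 2690 CPM in 5xFAD 1. Its group means were 2273 ± 250 CPM in WT, 1575 ± 398 in Card9-/-, 2357 ± 432 in 5xFAD and 2138 ± 392 in Card9-/-5xFAD (SD, n = 4). The Siglech change was 0.05 (FDR 0.963) in 5xFAD against WT, 0.44 (FDR 0.527) in Card9-/-5xFAD against Card9-/- and 0.25 (SE 0.19, FDR 0.458) in the average. Fcrls ranged from 1090 to 4233 CPM, with means of 2659 ± 1118 in WT, 2227 ± 713 in Card9-/-, 3252 ± 1387 in 5xFAD and 2825 ± 1059 in Card9-/-5xFAD. Its averaged change was 0.32 (SE 0.32, FDR 0.591), with an interval from -0.36 to 1.00. Selplg codes for PSGL-1, the ligand of P-selectin, and its averaged change was 0.05 (SE 0.32, FDR 0.939), from 1279 to 4441 CPM over the libraries. The interval for Selplg, from -0.62 to 0.73, leaves room for a difference of either sign. Without the 3 shallowest libraries the averages were 0.24 (FDR 0.380) for Siglech, 0.24 (FDR 0.497) for Fcrls and -0.02 (FDR 0.951) for Selplg.

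Tmem119, a transmembrane protein by which microglia are told from other brain macrophages, and Slc2a5, the fructose transporter GLUT5, had nearly the same profile. Tmem119 stood at 814, 4132, 3704 and 3016 CPM in WT and at 527, 2243, 2056 and 2740 CPM in 5xFAD. In Card9-/- it stood at 3519, 2467, 3104 and 1292 CPM, and in Card9-/-5xFAD at 2234, 2557, 1122 and 752 CPM. The groups overlapped through WT 1 and Card9-/- 4, which were low among the libraries without transgenes, and through Card9-/-5xFAD 2, which stood above Card9-/- 2. The Tmem119 change was -0.62 (FDR 0.729) in 5xFAD against WT, -0.64 (FDR 0.708) in Card9-/-5xFAD against Card9-/- and -0.63 (SE 0.39, FDR 0.357) in the average. Slc2a5 stood at 274, 1307, 988 and 868 CPM in WT, 1032, 881, 970 and 332 CPM in Card9-/-, 165, 653, 560 and 712 CPM in 5xFAD, and 692, 758, 415 and 206 CPM in Card9-/-5xFAD. The Slc2a5 change was -0.72 (FDR 0.672), -0.63 (FDR 0.702) and -0.68 (SE 0.38, FDR 0.310) in the same order. With the 3 shallowest libraries left out, Tmem119 (-0.75, FDR 0.0897) and Slc2a5 (-0.80, FDR 0.0523) were called. In those 13 libraries Slc2a5 ranged from 868 to 1307 CPM without transgenes and from 165 to 758 CPM with them, so its ranges separated. It was the 1 member of 10 whose ranges did, where those of 8.59% of genes did. Leaving these libraries out raised the share of all genes called to 33.0%, against 3 of 10 members (Sparc was the third), so the members' share was close to that of all genes. With the length slope as a covariate and all libraries kept, Tmem119 was at -0.17 (FDR 0.723) and Slc2a5 at -0.16 (FDR 0.727). With the neutrophil markers added as well, Tmem119 was at -0.45 (FDR 0.558) and Slc2a5 at -0.60 (FDR 0.328).

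Of the secreted markers, Sparc had the narrower spread and the higher mean with the transgenes. It stood at 4440, 4773, 5467 and 4351 CPM in WT and at 5540, 6919, 7504 and 5068 CPM in 5xFAD. In Card9-/- it stood at 4475, 2261, 3444 and 2682 CPM, and in Card9-/-5xFAD at 4482, 4443, 6441 and 3055 CPM. In 3 of the 5xFAD libraries Sparc was above all WT libraries, and 5xFAD 4 lay inside the WT range. The Sparc change was 0.40 (FDR 0.662) in 5xFAD against WT, 0.52 (FDR 0.496) in Card9-/-5xFAD against Card9-/- and 0.46 (SE 0.20) in the average, with an unadjusted p of 0.0404 and an FDR of 0.194. Sparc passed in DESeq2 on all libraries (0.53, FDR 0.0862), without Card9-/-5xFAD 4 (0.54, FDR 0.0937), without the 3 shallowest libraries (0.51, FDR 0.0776) and with 1 surrogate variable (0.49, FDR 0.0690). With the length slope as a covariate its change was 0.42 (FDR 0.192), and with the neutrophil markers added it was 0.06 (FDR 0.929). Endothelial cells also make SPARC, and their markers (35.6 to 151 CPM in sum over 9 genes, with Pecam1 and Pdgfrb called lower and 0 called higher of 8 tested) had a median change of -1.04. The call of Pdgfrb ended without any of 8 single libraries. Without Card9-/- 4 the median was -0.52 with 1 gene, Flt1, called higher, and without the 3 shallowest libraries it was -0.66, with 3 called lower and Flt1 higher at 2.14 (FDR 0.000126). Markers of astrocytes (173 to 480 CPM in sum over 8 genes) had a median change of 0.17. Of 8 tested, 2 were called higher and 0 lower, beside 11.3% of all genes called. Without the 3 shallowest libraries their median was 0.84, with 4 called higher and 2 lower, where 33.0% of all genes were called. The part of endothelial cells or astrocytes in the level of Sparc was not tested. Olfml3, a secreted olfactomedin-domain protein, had means of 1723 ± 779 CPM in WT, 1388 ± 502 in Card9-/-, 2161 ± 819 in 5xFAD and 1697 ± 747 in Card9-/-5xFAD (SD, n = 4). The averaged change of Olfml3 was 0.31 (SE 0.34, FDR 0.622), or 0.25 (FDR 0.456) without the 3 shallowest libraries, and it passed with 1 surrogate variable (0.56, FDR 0.0968), as Fcrls did (0.54, FDR 0.0948), where 31.5% of all genes passed.

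**Figure D2:**
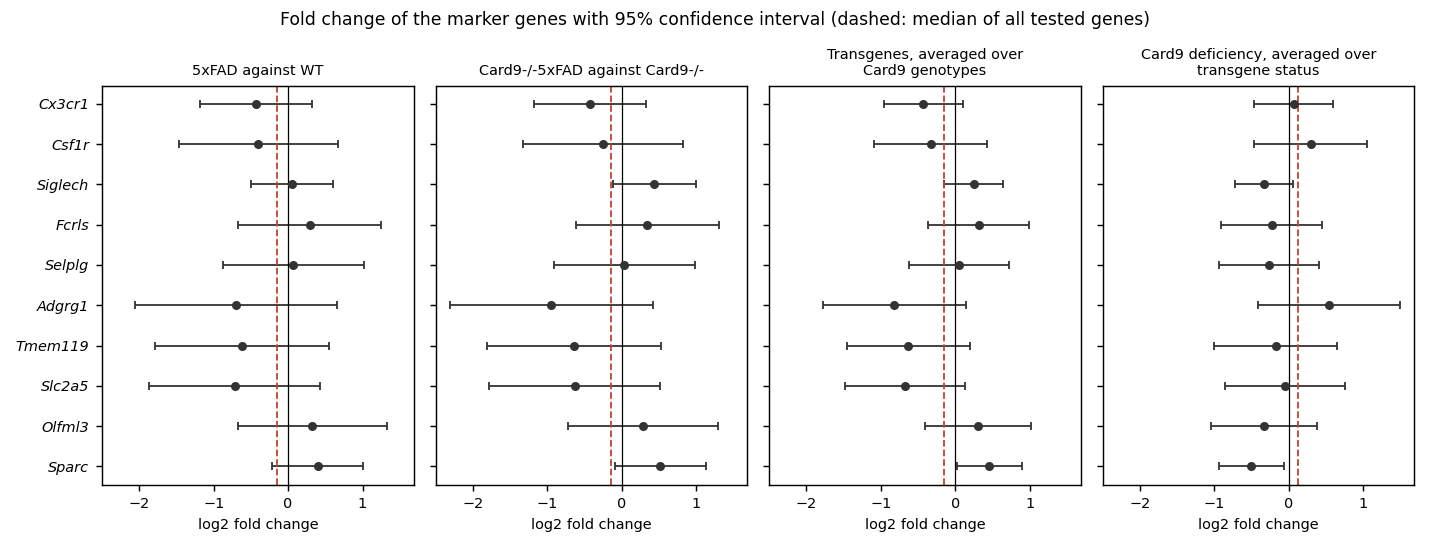
Points are the log2 fold changes (x axis) of the 10 marker genes (y axis) with 95% confidence intervals in 4 comparisons, and the dashed line is the median of all tested genes. In the averaged transgene comparison Adgrg1, Slc2a5 and Tmem119 have the lowest values and Sparc, at 0.46, the highest, while in the averaged Card9 comparison Sparc, at -0.50, is the lowest.

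The question of Card9 was put by Card9-/- against WT and by Card9-/-5xFAD against 5xFAD. Members had lower means without Card9 in 7 of 10 cases in each comparison, and none passed the test. edgeR and DESeq2 on all libraries both called 0 of 10 members in Card9-/- against WT (0 at an unadjusted p below 0.05, lowest FDR 0.970), where 0% of all genes were called by edgeR. They also called 0 in Card9-/-5xFAD against 5xFAD (0 at an unadjusted p below 0.05, lowest FDR 0.993), again with 0% of all genes. Averaged over transgene status, 0 members were called, 1 had an unadjusted p below 0.05, and 0.0276% of all genes were called. That member was Sparc, at -0.50 (SE 0.21, unadjusted p of 0.0257, FDR 0.520). Its mean was 4758 ± 506 CPM in WT and 3216 ± 972 in Card9-/-, and 6258 ± 1143 in 5xFAD and 4605 ± 1392 in Card9-/-5xFAD (SD, n = 4). The Sparc ranges touched through Card9-/- 1, at 4475 CPM above 2 WT libraries, and Card9-/-5xFAD 3, at 6441 CPM above 2 5xFAD libraries. Siglech followed at -0.34 (SE 0.19, FDR 0.581), and Adgrg1 had the highest value, 0.54 (SE 0.45, FDR 0.690). The other 7 members lay between -0.33 and 0.29, with FDR of 0.738 or more. The members' median was -0.20, whereas the median of all tested genes was 0.13. Without the 3 shallowest libraries Sparc was at -0.41 (FDR 0.335), no member was called, and the other 9 lay between -0.31 and 0.62.

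The interaction term asks whether the transgene difference depended on Card9. 0 members were called by edgeR or DESeq2 on all libraries, 0 had an unadjusted p below 0.05, and 0% of all genes were called by edgeR. The members' interaction terms lay between -0.25 and 0.39 (log2) with SEs of 0.37 to 0.90 and an FDR of 1.00 each. The widest 95% limits reached -2.16 and 1.70, so an interaction of several fold in a single gene such as Adgrg1 was not detectable with 4 libraries a group.

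The members also differed in how far they varied among libraries of 1 genotype. Siglech had a within-genotype SD of 0.28 in log2 CPM, smaller than that of all but 4.42% of tested genes, and Sparc had 0.34, with 10.3% of genes below it. Cx3cr1 followed at 0.48. The SDs of Selplg (0.72), Fcrls (0.73), Csf1r (0.76) and Olfml3 (0.77) were above the median of all genes, 0.62. Those of Slc2a5 (0.91), Tmem119 (0.93) and Adgrg1 (0.99) exceeded the SD of 78.5%, 80.1% and 83.6% of genes. From the lowest to the highest library the level of Siglech ran from 1121 to 2690 CPM and that of Adgrg1 from 61.0 to 609.8 CPM. A fold change of a given size was thus measured with less error in Siglech or Sparc than in Tmem119 or Adgrg1, and the averaged SEs ran from 0.19 to 0.45. Without the 3 shallowest libraries the SDs were smaller for most genes, with a median of 0.46 over all genes, and ran from 0.32 for Siglech (22.5% of genes below it) and 0.32 for Sparc (23.4%) to 0.71 for Tmem119 (84.6%), 0.73 for Csf1r (85.7%) and 1.09 for Adgrg1 (97.8%). Selplg (0.47) and Olfml3 (0.46) were then close to the median gene.

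Much of this variation was shared. Within genotypes, over the 16 libraries, the mean Pearson r among the 45 pairs of members was 0.50, and 38 pairs were positive. The highest was between Tmem119 and Slc2a5 (r = 0.98) and the lowest between Siglech and Adgrg1 (r = -0.69). Read from these values, and so as a description with no test, 5 members formed 1 set, Tmem119, Slc2a5, Fcrls, Selplg and Olfml3, with r between 0.90 and 0.98 in their 10 pairs. Cx3cr1, Csf1r and Adgrg1 formed a second, with r between 0.85 and 0.98, and Siglech and Sparc followed each other less closely (r = 0.69). The set of 5 and the second set were not separate, as the 15 pairs between them had r from 0.20 (Olfml3 and Adgrg1) to 0.85 (Tmem119 and Cx3cr1). Over the 13 libraries without the 3 shallowest, the mean r over all pairs was 0.38, with 0.82 to 0.99 in the set of 5, 0.87 to 0.97 in the second, 0.83 for Siglech and Sparc, and -0.04 to 0.80 between the first and second. The points share libraries, depth and the other measures given below.

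**Figure D3:**
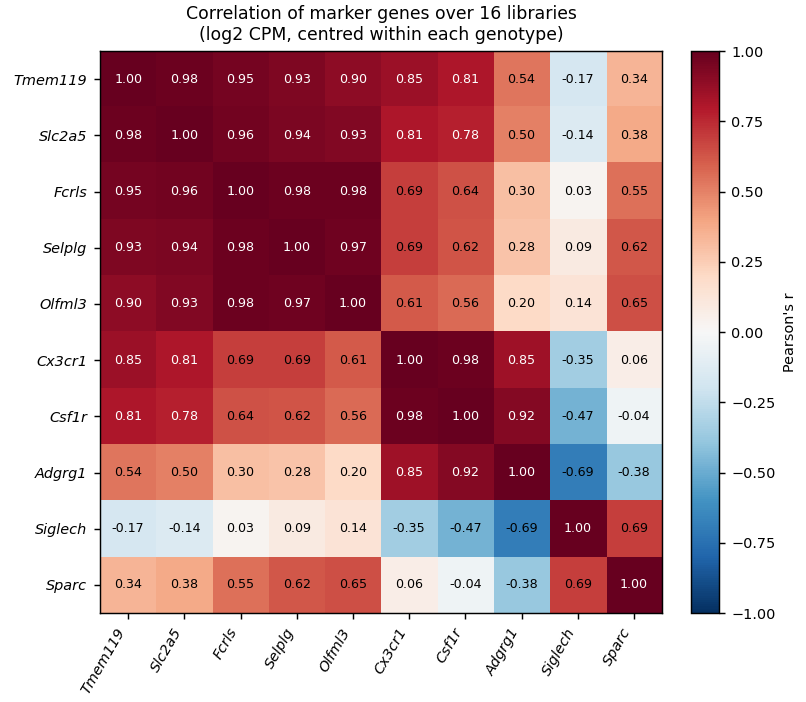
Each cell gives Pearson's r between 2 marker genes (both axes) over 16 libraries in log2 CPM centred within genotype, from blue (-1) to red (1). The upper left block holds Tmem119, Slc2a5, Fcrls, Selplg and Olfml3 with r from 0.895 to 0.984. The row of Siglech is negative against Adgrg1, Csf1r and Cx3cr1, and weakly so against Tmem119 (-0.165) and Slc2a5 (-0.138).

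The set of 5 was low in 1 library of each genotype. Its mean deviation from the genotype mean was -1.33 (log2) in WT 1, -0.84 in Card9-/- 4, -1.29 in 5xFAD 1 and -1.12 in Card9-/-5xFAD 4, and lay between -0.03 and 0.63 in the other 12 libraries. Of these 4 libraries, 3 are the shallowest libraries with the most neutrophil marker RNA, and the fourth, 5xFAD 1, had 7188423 counts, 2110 CPM of neutrophil markers and the lowest length slope, -0.224. WT 1 was the lowest WT library for 8 of 10 members, Card9-/- 4 the lowest of its genotype for 8 and 5xFAD 1 for 7. The 10 members summed to 16480, 16400, 16700 and 14850 CPM in WT 1, Card9-/- 4, 5xFAD 1 and Card9-/-5xFAD 4, and to between 22200 and 34700 CPM elsewhere. Cx3cr1, Csf1r and Adgrg1 were low in these libraries too, by -0.67 in WT 1, -0.62 in Card9-/- 4, -0.65 in 5xFAD 1 and -0.39 in Card9-/-5xFAD 4. Elsewhere they deviated by 1.33 in 5xFAD 4, 0.66 in Card9-/-5xFAD 1 and 0.80 in Card9-/-5xFAD 2, which are the 3 transgenic libraries with a positive length slope, and by -1.07 in Card9-/-5xFAD 3. Siglech and Sparc deviated on average by -0.05 in WT 1, -0.19 in Card9-/- 4, 0.03 in 5xFAD 1 and -0.26 in Card9-/-5xFAD 4, where Sparc alone was at -0.54, the lowest of its genotype. The neutrophil markers, depth and length slope moved with these sets, and their part in the members' levels was not tested beyond the fits with covariates given above.

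**Figure D4:**
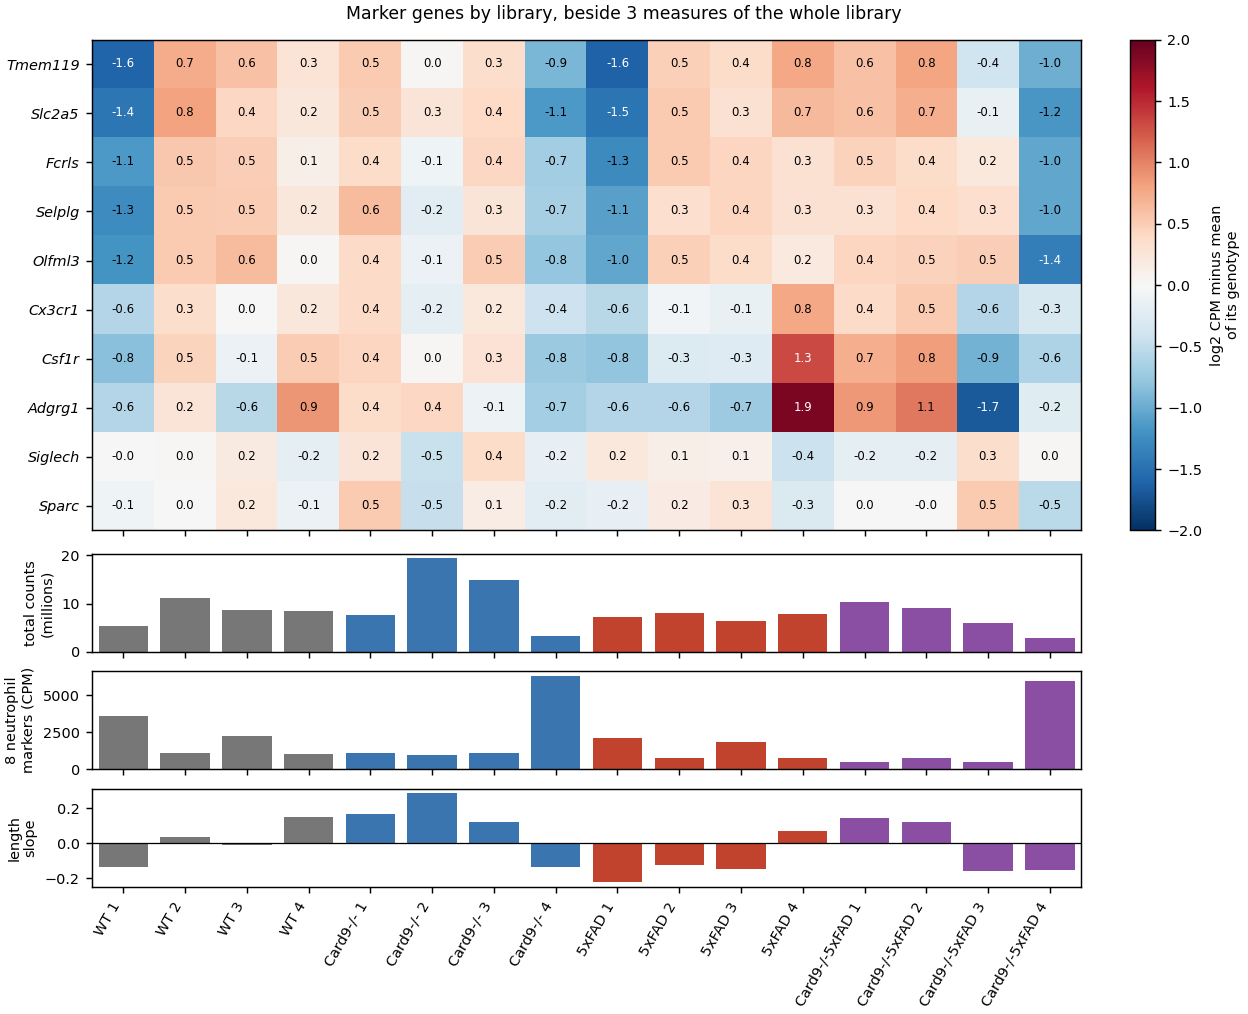
The upper panel shows the deviation of each marker gene (rows) in each library (columns) from the mean of its genotype in log2 CPM, blue for low and red for high. The lower panels give the total counts, the summed CPM of 8 neutrophil markers and the length slope of the same libraries, in which WT 1, Card9-/- 4 and Card9-/-5xFAD 4 combine the lowest depth, the tallest neutrophil bars and low values of the first 5 genes.

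Genes outside the 10 that followed them most closely within genotypes, over 16 libraries, were Bin1 (mean r to the members 0.72), Ctsb (0.72), Lpcat2 (0.72), Abhd12 (0.72) and Ctsf (0.72). Bin1 codes for a membrane-bending protein, Ctsb and Ctsf for lysosomal cathepsins, Lpcat2 for an enzyme of phospholipid synthesis and Abhd12 for a lysophosphatidylserine lipase. Ctsb was called higher with the transgenes on average (1.03, SE 0.36, FDR 0.0987), a call that ended when any of 14 of the 16 libraries was left out (FDR up to 0.181). The other 4 were not called, at -0.34 for Bin1, -0.46 for Lpcat2, 0.49 for Abhd12 and -0.17 for Ctsf (log2).

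The ligands and binding partners of the members were mostly scarce in these cells, and 5 of 10 passed the filter. Of these, 1 rose and 3 fell with the transgenes on average, where 11.3% of all genes were called. Csf1, the ligand of CSF1R, rose by 3.06 (SE 0.35, FDR 4.18e-05), from 20.2 ± 14.8 CPM in WT to 172 ± 62.8 in 5xFAD and from 24.1 ± 13.8 in Card9-/- to 193 ± 54.8 in Card9-/-5xFAD (SD, n = 4). Its ranges did not overlap in either comparison, while its receptor gene Csf1r was not called. Tgm2, transglutaminase 2, a partner of ADGRG1, was called lower, at -1.20 (FDR 0.00637). Cx3cl1, the ligand of CX3CR1, was near the limit of counting, at most 2.94 CPM in any library, and was called at -1.58 (FDR 0.0528), with 5 libraries whose omission ended the call (FDR up to 0.115).

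Of the other homeostatic genes, few passed the test. Of 22 listed, 22 were tested, 1 rose and 1 fell on average (9.09%, beside 11.3% of all genes), with a median of -0.32. Serpine2, a secreted protease inhibitor, rose by 1.28 (SE 0.20, FDR 0.000926), with means of 892 ± 256 CPM in WT and 2437 ± 311 in 5xFAD, and 921 ± 138 in Card9-/- and 1977 ± 472 in Card9-/-5xFAD. Sall1, a transcription factor of microglial identity, at -0.49 (FDR 0.133), and Ecscr, at -0.51 (FDR 0.169), did not pass. Without the 3 shallowest libraries 2 genes of this list were higher and 6 lower, where 33.0% of all genes were called.

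In contrast, DAM genes separated the libraries by transgene. Of 22 genes, 20 rose on average, beside 11.3% of all genes called, with a median log2 fold change of 2.16. Cst7, a cystatin, rose by 6.72 (SE 0.29, FDR 5.8e-10), from 36.5 ± 11.5 CPM in WT to 3658 ± 984 in 5xFAD. Lpl, lipoprotein lipase, rose by 4.36 (FDR 7.31e-09), Itgax, the integrin CD11c, by 3.83 (FDR 4.78e-08) and Clec7a, the β-glucan receptor dectin-1, by 3.34 (FDR 7.92e-07). The summed level of the 22 genes was 10600 to 20700 CPM without transgenes and 37900 to 65100 CPM with them, so these groups did not overlap, while the sums of the 6 member receptors (9490 to 22700 CPM over all groups) did. Called lower were 5 of 8 markers of border-associated macrophages, 3 of 8 of neutrophils and 2 of 8 of endothelial cells or pericytes. The share of all genes called, in either direction, was the same 11.3%. The part of these cells in the results above was not tested. Without the 3 shallowest libraries, 22 of 22 DAM genes were called higher, and 5 of 8 macrophage, 5 of 8 neutrophil and 3 of 8 endothelial or pericyte genes lower. In that fit 33.0% of all genes were called.

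**Figure D5:**
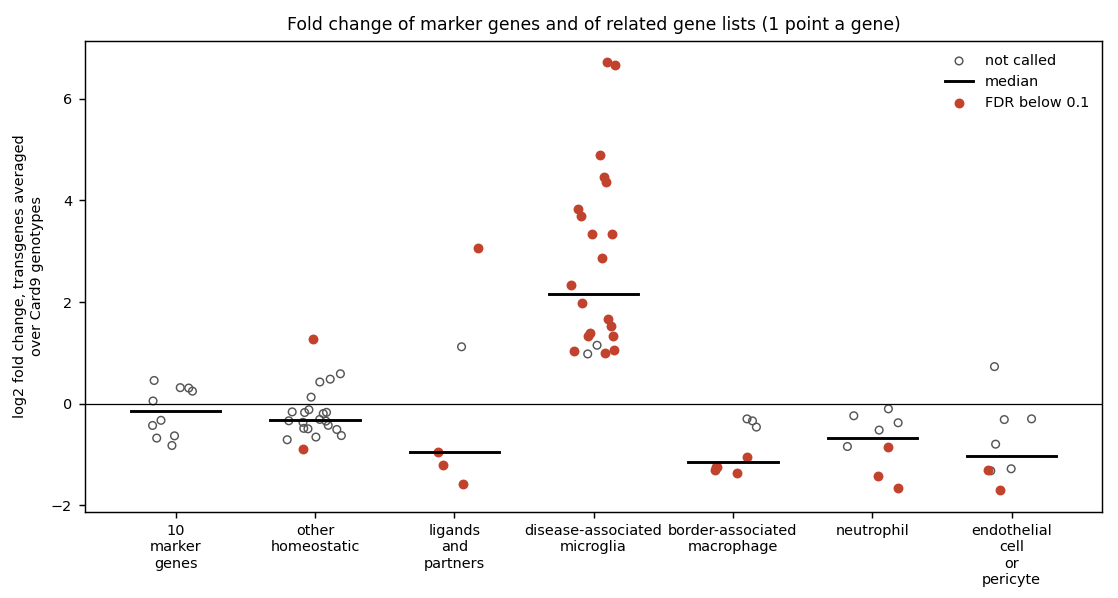
Each point is 1 tested gene of a list (x axis), placed at its log2 fold change with the 5xFAD transgenes averaged over Card9 genotypes (y axis), filled where the FDR was below 0.1, with the list's median as a line. The 10 marker genes are all open points between -0.82 and 0.46, with a median of -0.14, while 20 of 22 DAM genes are filled, with a median of 2.16.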

How the data were processed

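RNA-seq libraries of CD11b+ brain cells from 16 samples in 4 genotypes were analysed. The authors aligned reads to mm10 with HISAT2, filtered them with SAMtools and counted them per gene with HTSeq, and deposited whole-number read counts without normalization; the strand setting is not given in the sources used here. Counts were tested in R 4.3.3 with edgeR 4.0.16 (TMM, filterByExpr with a minimum count of 10, 1 quasi-likelihood fit of all 16 libraries, FDR 0.1 by Benjamini-Hochberg), with 7 contrasts of the 4 groups. SEs were taken from the fold change and its F statistic. CPM uses TMM library sizes, log2 CPM a prior count of 2, and exon lengths come from GENCODE M21 (GRCm38). Scripts were tested on simulated data. Alternatives used DESeq2 1.42.0, sva 3.50.0, other filters, thresholds and left-out libraries. Fits without the 3 shallowest libraries, and with length slope or neutrophil markers as covariates, were chosen after seeing the data. The members and gene lists were chosen with earlier results of these data known. Genes outside the 10 were named by rule: the 4 of lowest p in the averaged transgene contrast from each of the homeostatic, partner and DAM lists, and the 5 with the highest mean r to the members. Genes named beyond this rule as examples of lists or as neighbours were chosen after their values were seen. Single genes of these lists that are not named are not reported here.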

Additional observations from a re-analysis of the deposited data

Results flagged for a closer look

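In 5 of the 40 sets of 4 libraries tested (10 genes in 4 genotypes), 1 library lay far from the other 3 by Dixon's test at the 95% level, which chance alone flags in about 1 of 20 sets. Csf1r was at 6769 CPM in 5xFAD 4, against 1567 to 2262 CPM in the other 5xFAD libraries. Adgrg1 was at 490.9 CPM in the same library, against 80.22 to 87.81 CPM. Selplg was at 1561 CPM in 5xFAD 1, against 4076 to 4441 CPM, and at 1318 CPM in Card9-/-5xFAD 4, against 3358 to 3582 CPM. Olfml3 was at 577.1 CPM in Card9-/-5xFAD 4, against 2028 to 2115 CPM.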

How the results depend on the processing

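Of 1900 values for the 10 markers over 28 settings, 1746 kept their sign and side of the threshold, 145 changed sign and 9 passed the threshold. The setting with an FDR threshold of 0.05 refitted nothing, so its values were kept by construction. Leaving out a library that a comparison does not use also hardly moved its fold changes. The count of values kept therefore overstates the stability. The count of members called in the averaged transgene comparison, 0 in the fit reported, was 1 with DESeq2 on all libraries, 3 with 1 surrogate variable and 3 with the 3 shallowest libraries left out, and between 0 and 1 when 1 library was left out; in the other 6 contrasts it was 0 under every setting run. For that comparison the log2 fold change of Selplg turned to -0.0244 without the 3 shallowest libraries, and that of Csf1r to 0.0668 with the length slope as a covariate. With length slope and neutrophil markers it was 0.15 for Csf1r, -0.0759 for Siglech, -0.13 for Selplg, 0.0621 for Adgrg1 and -0.0511 for Olfml3. In 5xFAD against WT, Siglech was at -0.0801 with the length slope and -0.26 with both covariates, and Adgrg1 at 0.14 with both. For Card9 averaged over transgene status, Cx3cr1 was at -0.0459 with at least 10 counts in every library, Slc2a5 at 0.0556 without the 3 shallowest, Cx3cr1 at -0.17 and Csf1r at -0.12 with the length slope, and Cx3cr1 at -0.19, Csf1r at -0.15 and Adgrg1 at -0.11 with both covariates. Leaving out 1 library at a time gave -0.0118 to 0.34 for Siglech in 5xFAD against WT, -0.0829 to 0.19 for Selplg with the transgenes averaged, and -0.0354 to 0.14 for Cx3cr1 and -0.21 to 0.0817 for Slc2a5 with Card9 averaged. The cause of these shifts was not tested, and each value that changed sign had an FDR above the threshold. The share of all genes called in the averaged transgene comparison ran from 3.57% with no filter to 33.0% without the 3 shallowest libraries, and the median of all genes from -0.23 to 0.01. With the replicate number as a replicate block, 0 members were called in the averaged comparison and Adgrg1 was at -1.01 (FDR 0.171). Whether the numbers pair the samples was not settled. Between same-numbered libraries r ran from -0.71 to 0.73 over 24 pairs, 15 of them above 0.1, and 5 of 16 libraries correlated best with their own number. Every negative r lay in numbers 1 and 4, which hold the 3 shallowest libraries and 5xFAD 1, so these libraries weigh on the check. Over all 16 libraries, with within-genotype SDs from 0.91 to 0.99, the averaged differences of Tmem119, Slc2a5 and Adgrg1 did not pass in edgeR. Without the 3 shallowest libraries Tmem119 (SD 0.71, FDR 0.0897) and Slc2a5 (SD 0.63, FDR 0.0523) passed, and Adgrg1 (SD 1.09, FDR 0.184) did not.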
